A study of Mus musculus with 4 samples.

Results

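The 36 genes described here encode ligands, receptors, Smad proteins and inhibitors of the TGF-beta and BMP pathway. They were taken by symbol from a fixed list, and all 36 were among the 23450 genes listed in each library. The RNA sequenced came from 2000 hematopoietic stem cells (HSCs) per library, which were sorted out of mouse bone marrow. The long-term HSC group (LT-HSC, 2 libraries) was sorted as CD48-, CD150+, CD34- and CD9high. The short-term HSC group (ST-HSC, 2 libraries) was sorted as CD48-, CD150+ and CD9low, with no CD34 gate given. CD48 and CD150 are SLAM family surface proteins that separate stem cells from progenitors, CD34 is a sialomucin of progenitors, and CD9 is a tetraspanin. The labels name no strain, sex or age and do not say whether each library is a different animal or pool, so a p-value rests on a spread from library to library that may be technical.

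TGF-beta family ligands bind pairs of type II and type I receptor kinases, and the type I receptor phosphorylates receptor Smads, which join Smad4 and act on genes in the nucleus. TGF-beta and activin receptors act mainly through Smad2 and Smad3, BMP receptors through Smad1, Smad5 and Smad9, while Smad6 and Smad7 block the receptors. In bone marrow, TGF-beta is known as a signal that holds HSCs in quiescence.

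Of the 36 genes, 27 reached 1 CPM (a count per 1e6 library reads) in at least 2 of the 4 libraries and were tested with limma on log2(CPM + 1) among 12569 genes. A log2 fold change is LT-HSC over ST-HSC on that scale, which understates the change of low genes. None of the 27 passed an adjusted p of 0.05, nor did any other tested gene (0 of 12569, 0.0%). At an unadjusted p under 0.05, 2 of the 27 were higher in LT-HSC and 0 lower, where 2.87% of all tested genes were higher (361) and 3.6% lower (453). The 2 were Ski and Smad7, whose products restrain the pathway. With limma-voom on the reads, 0 genes passed the adjusted p, and 280 were higher and 306 lower at the unadjusted one. Which genes passed turned on single libraries. Without LT-HSC 1 it was Inhba alone, without LT-HSC 2 Tgif1 alone, without ST-HSC 1 Smad7 and Smurf1, and without ST-HSC 2 Acvr1 alone. Over all tested genes, leaving out LT-HSC 1 gave 248 higher and 609 lower, LT-HSC 2 gave 277 higher and 822 lower, ST-HSC 1 gave 366 higher and 151 lower, and ST-HSC 2 gave 245 higher and 149 lower. Every LT-HSC value exceeded every ST-HSC value for 4 of the 27 genes (14.8%), against 16.1% of all tested genes, and the reverse held for 2 (7.41%), against 17.5%. The median log2 fold change of the 27 genes was 0.10, beside -0.0096 over all tested genes. Summed over all 36 genes the level was 1397 and 1488 CPM in LT-HSC, against 1295 and 1354 CPM in ST-HSC.

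**Figure D1:**
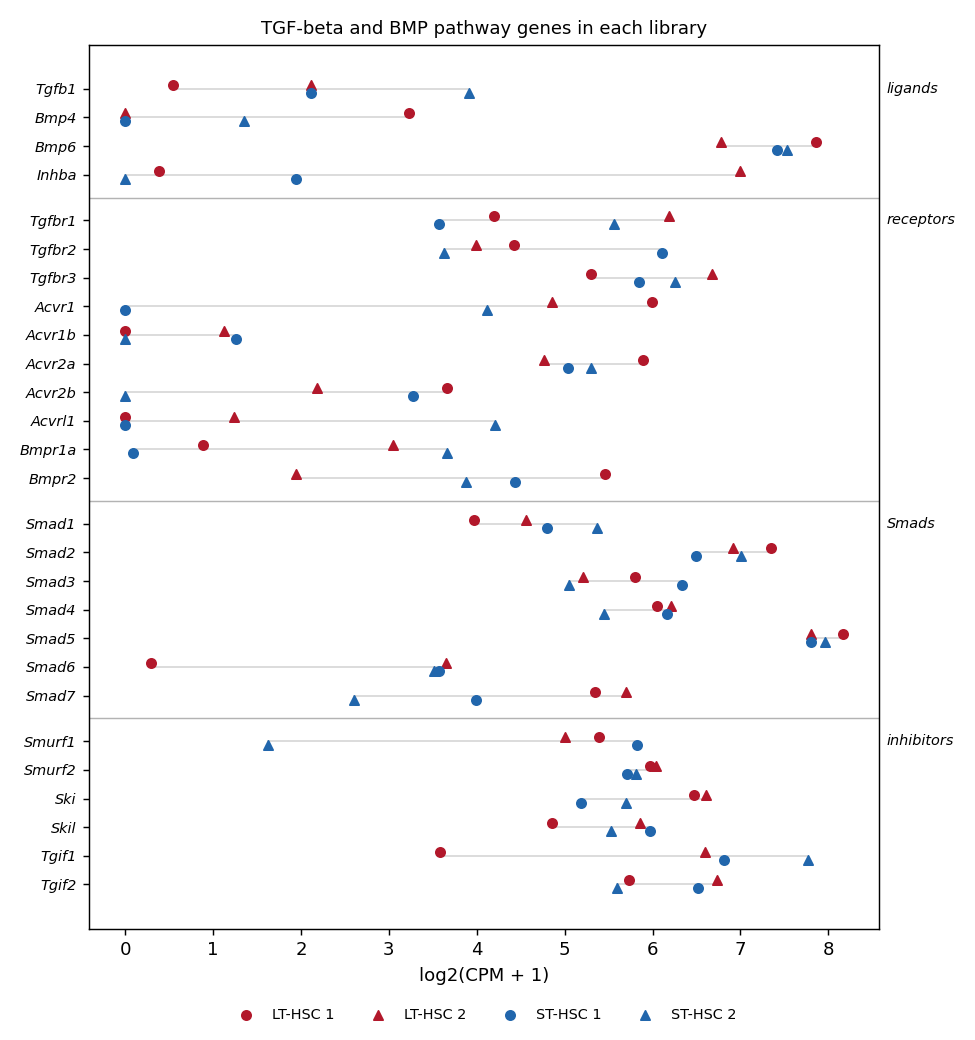
Level of each of the 27 tested pathway genes in each library as log2(CPM + 1), with genes grouped by role from ligands at the top to inhibitors at the bottom. Red symbols are LT-HSC and blue symbols ST-HSC libraries, and the circle and triangle are libraries 1 and 2. The red pair lies right of the blue pair for Acvr1, Smad7, Smurf2 and Ski, left of it for Smad1 and Tgif1, and the pairs overlap for the other 21 genes.

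Among the 9 ligand genes of the fixed list, Bmp6 was the one with a sizeable level in every library. It had 231 and 109 CPM in LT-HSC 1 and 2, against 169 and 183 CPM in ST-HSC 1 and 2. The LT-HSC libraries lay on either side of the ST-HSC pair, and the log2 fold change was -0.15 ± 0.42 (SE). Its product is a BMP known for control of hepcidin and iron balance. Tgfb1, the main TGF-beta isoform of blood cells and platelets, was low, at 0.459 and 3.34 CPM in LT-HSC, against 3.32 and 14.1 CPM in ST-HSC. LT-HSC 2 and ST-HSC 1 were level, and the log2 fold change was -1.68 ± 1.24 (SE, limma adjusted p = 0.885). It was -0.78 without ST-HSC 2, -0.90 without LT-HSC 1, -2.47 without LT-HSC 2 and -2.58 without ST-HSC 1. Megakaryocyte and platelet markers were lower in LT-HSC as a summed level, 95.7 and 79.3 CPM, against 256 and 193 CPM in ST-HSC. Most of that gap was 1 gene, Itga2b, the integrin CD41 of megakaryocytes and some stem cells, with 2.45 and 5.01 CPM in LT-HSC, against 152 and 105 CPM in ST-HSC. Of the 4 tested markers in that list of 6, Pf4 and Gp9 also lay below both ST-HSC libraries, with log2 fold changes of -0.47 and -0.10, and Ppbp overlapped at 0.14. Gp6 had no read in any library, and the part of these markers in the Tgfb1 values was not tested. Since the samples are bulk RNA, fewer cells of a type and less RNA per cell cannot be told apart.

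Inhba, which encodes the activin A subunit, came almost wholly from 1 library. It had 0.306 and 127 CPM in LT-HSC, against 2.86 and 0 CPM in ST-HSC, which is 4, 2047, 43 and 0 reads in the same order. The fold change of 2.72 ± 2.40 (log2, SE) became -0.59 without LT-HSC 2. Bmp4, which encodes a BMP of mesoderm and stroma, had 110 and 0 reads in LT-HSC, against 0 and 23 reads in ST-HSC, with 1 library of each group unread. Stromal and endothelial markers summed to 68.1 and 38.9 CPM in LT-HSC, against 18.1 and 31.4 CPM in ST-HSC. Of these 10 genes 3 were tested, with log2 fold changes of 1.10 for Kdr, which lay above both ST-HSC libraries, and -1.46 for Pdgfrb and -1.69 for Cdh5, which overlapped. Other reads came from single libraries, with Col3a1 and nearly all Cxcl12 in LT-HSC 1, Postn in LT-HSC 2 and Bglap in ST-HSC 1. Lepr and Lum had no read in any library, and the part of such cells in the Inhba and Bmp4 values was not tested. Tgfb2, Bmp2 and Inhbb had no read in any library, Tgfb3 had 1 read in LT-HSC 2 only, and Bmp7 had 0 and 2 reads in LT-HSC, against 3 and 4 reads in ST-HSC. A count of 0 allows up to 3 reads, which is 0.186 to 0.229 CPM depending on the library. Over the 4 tested ligands the median log2 fold change was 0.40, and it lay between -0.68 and 0.76 with single libraries left out. It was -0.05 without the filter on low genes and 1.28 over the 2 ligands with a mean of at least 10 CPM.

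The receptors were read in every library for 5 of 11 genes at a level of at least 3 reads. Acvr1, Acvr2b and Bmpr1a fell below that in a single library, and Acvr1b, Acvrl1 and Bmpr1b in more than a single library. Tgfbr1 and Tgfbr2 encode the type I and type II TGF-beta receptors. Tgfbr1 had 17.4 and 72.0 CPM in LT-HSC, against 10.8 and 46.2 CPM in ST-HSC, with a log2 fold change of 0.63 ± 1.08 (SE), and in both groups library 2 was the higher one. Tgfbr2 had 20.4 and 14.9 CPM in LT-HSC, against 67.8 and 11.4 CPM in ST-HSC, with the high value in ST-HSC 1 alone. Tgfbr3, the coreceptor betaglycan, had 38.3 and 101 CPM in LT-HSC, against 56.5 and 75.5 CPM in ST-HSC. The LT-HSC values enclosed the ST-HSC values, and the log2 fold change was -0.07 ± 0.59 (SE).

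Acvr1, which encodes the BMP and activin type I receptor ALK2, was the receptor with the widest gap between groups. It had 62.5 and 28.0 CPM in LT-HSC, against 0 and 16.4 CPM in ST-HSC (817, 453, 0 and 243 reads). Every LT-HSC value exceeded every ST-HSC value, with a log2 fold change of 3.36 ± 1.61 (SE, limma adjusted p = 0.809), which was 1.30 without ST-HSC 1, the unread library, and 5.42 without ST-HSC 2. Bmpr1a, a type I BMP receptor gene, had 0.841 and 7.24 CPM in LT-HSC, against 0.0665 and 11.7 CPM in ST-HSC. Here too library 2 was the higher one in both groups. Bmpr1b, its close relative, had 1 and 53 reads in LT-HSC and none in ST-HSC, and was too low to be tested. Acvrl1, which encodes the endothelial type I receptor ALK1, had 0 and 1.36 CPM in LT-HSC, against 0 and 17.5 CPM in ST-HSC, and so came mostly from ST-HSC 2. Acvr1b, the activin type I receptor gene, had 0 and 19 reads in LT-HSC, against 21 and 0 reads in ST-HSC.

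The other type II receptors overlapped between the groups. Acvr2a, which encodes an activin and BMP receptor, had 58.6 and 26.2 CPM in LT-HSC, against 31.8 and 38.3 CPM in ST-HSC. Acvr2b, its paralog, had 11.7 and 3.53 CPM in LT-HSC, against 8.71 and 0 CPM in ST-HSC. Bmpr2, the BMP type II receptor gene, had 42.8 and 2.85 CPM in LT-HSC, against 20.6 and 13.7 CPM in ST-HSC. The log2 fold changes were 0.16 ± 0.63 for Acvr2a, 1.28 ± 1.51 for Acvr2b and -0.46 ± 1.40 for Bmpr2 (SE). Over the 10 tested receptors, 5 fold changes were positive and 5 negative, with a median of 0.0083, which moved between -0.41 and 0.52 with single libraries left out.

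Smad4 and the receptor Smads other than Smad9 had at least 10 CPM in every library. Smad5, a BMP receptor Smad, had 287 and 222 CPM in LT-HSC, against 223 and 248 CPM in ST-HSC, and its log2 fold change was 0.10 ± 0.24 (SE). Smad2, a receptor Smad of TGF-beta and activin, had 162 and 119 CPM in LT-HSC, against 89.4 and 127 CPM in ST-HSC, and its log2 fold change was 0.38 ± 0.35 (SE), which became 0.13 without ST-HSC 1, 0.16 without LT-HSC 1, 0.60 without LT-HSC 2 and 0.63 without ST-HSC 2. Smad4, the shared partner, had 65.1 and 73.1 CPM in LT-HSC, against 70.6 and 42.7 CPM in ST-HSC. The values of these 3 genes overlapped between groups. Smad3, the other TGF-beta receptor Smad, had 54.6 and 36.02 CPM in LT-HSC, against 79.5 and 32.2 CPM in ST-HSC, with the ST-HSC libraries enclosing the LT-HSC ones. Smad1, the BMP receptor Smad beside Smad5, had 14.7 and 22.7 CPM in LT-HSC, against 26.9 and 40.4 CPM in ST-HSC. Both LT-HSC libraries lay below both ST-HSC libraries, with means of 18.7 ± 5.64 CPM in LT-HSC, against 33.7 ± 9.56 CPM in ST-HSC (SD, n = 2 per group) and a log2 fold change of -0.82 ± 0.70 (SE, limma adjusted p = 0.917). With single libraries left out that value lay between -1.12 (LT-HSC 2 left out) and -0.52 (LT-HSC 1 left out). Smad9, the third BMP receptor Smad gene, had no read in any library.

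The inhibitory Smads did not go together. Smad7, which blocks type I receptors and recruits ubiquitin ligases to them, had 39.7 and 51.0 CPM in LT-HSC, against 15.0 and 5.05 CPM in ST-HSC. Every LT-HSC value exceeded every ST-HSC value, with means of 45.3 ± 8.0 CPM in LT-HSC, against 10.01 ± 7.0 CPM in ST-HSC (SD, n = 2 per group). The log2 fold change was 2.23 ± 0.85 (SE, limma adjusted p = 0.767), and it lay between 1.53 and 2.93 with single libraries left out. Smad6, which acts mainly on BMP receptors, had 0.229 and 11.5 CPM in LT-HSC, against 10.9 and 10.4 CPM in ST-HSC. Only LT-HSC 1 stood apart, with 3 reads, and the log2 fold change of -1.57 ± 1.46 (SE) became 0.10 without it. Over the 7 tested Smad genes the median log2 fold change was 0.10, and it lay between -0.032 and 0.24 with single libraries left out.

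Ski, which encodes a corepressor that binds Smad complexes on DNA, was at 87.7 and 96.7 CPM in LT-HSC, against 35.5 and 50.8 CPM in ST-HSC. Every LT-HSC value exceeded every ST-HSC value, with means of 92.2 ± 6.39 CPM in LT-HSC, against 43.2 ± 10.8 CPM in ST-HSC (SD, n = 2 per group). The log2 fold change was 1.10 ± 0.42 (SE, limma adjusted p = 0.767), and it lay between 0.85 and 1.35 with single libraries left out. Its relative Skil, which encodes the corepressor SnoN, had 27.9 and 57.2 CPM in LT-HSC, against 61.9 and 45.0 CPM in ST-HSC. The Skil values overlapped, with a log2 fold change of -0.39 ± 0.57 (SE).

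The TALE homeobox genes Tgif1 and Tgif2 encode further Smad corepressors. Tgif1 had 11.0 and 95.9 CPM in LT-HSC, against 111 and 216 CPM in ST-HSC. Both LT-HSC libraries lay below both ST-HSC libraries, LT-HSC 2 only just, and library 2 was the higher one in both groups. The log2 fold change of -2.19 ± 1.07 (SE, limma adjusted p = 0.809) was -0.69 without LT-HSC 1 and -3.70 without LT-HSC 2. Tgif2 had 52.1 and 106 CPM in LT-HSC, against 90.9 and 47.4 CPM in ST-HSC, with overlapping values. The ubiquitin ligase genes Smurf1 and Smurf2, whose products target Smads and receptors for degradation, differed in spread. Smurf2 had 61.8 and 64.6 CPM in LT-HSC, against 51.2 and 55.3 CPM in ST-HSC, which did not overlap, with a small log2 fold change of 0.24 ± 0.40 (SE). Smurf1 had 41.1 and 31.2 CPM in LT-HSC, against 55.5 and 2.09 CPM in ST-HSC, and its log2 fold change of 1.48 ± 1.51 (SE) became -0.62 without ST-HSC 2. Of the secreted antagonists, Nog (noggin, a BMP antagonist) had no read and Fst (follistatin, an activin antagonist) had 1 read, in LT-HSC 2. The 6 tested inhibitors had a median log2 fold change of 0.21, which lay between -0.45 and 0.48 with single libraries left out.

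**Figure D2:**
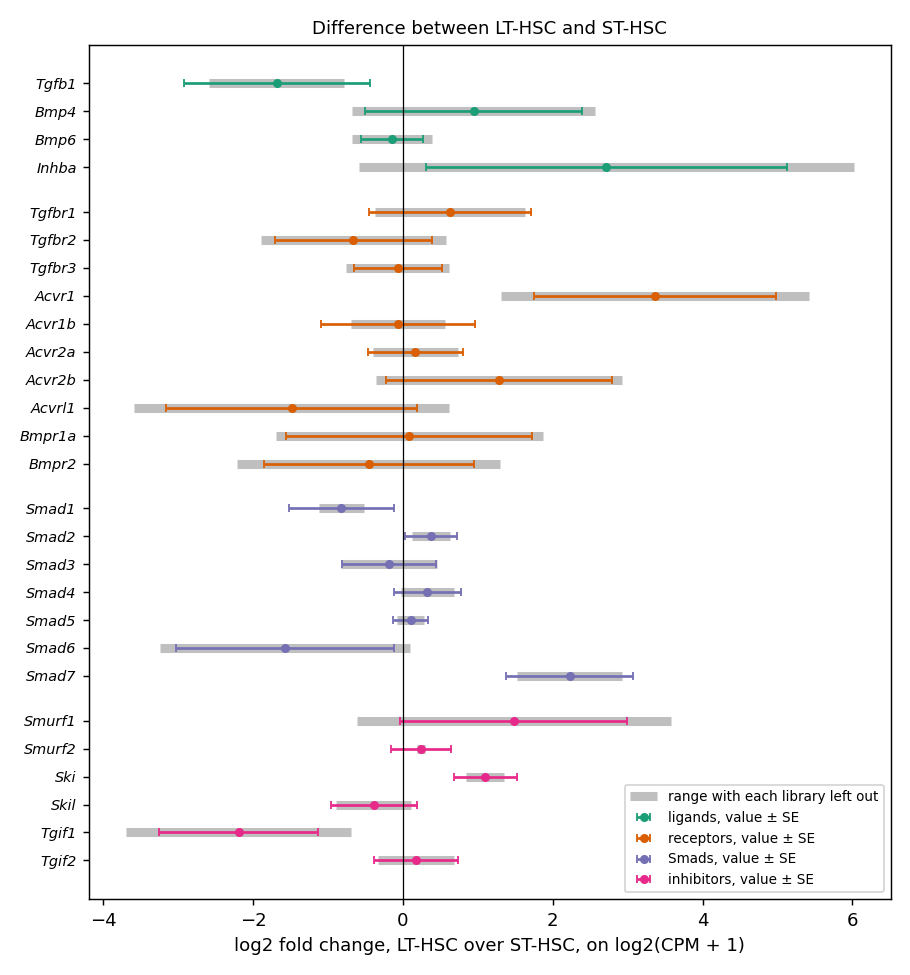
Log2 fold change of LT-HSC over ST-HSC for each tested gene on the log2(CPM + 1) scale, with dots and thin bars for the value ± SE from limma and grey bars for the range when each library was left out in turn. For 8 of the 27 genes the grey bar stays on one side of 0, among them Smad7 (1.53 to 2.93), Ski (0.85 to 1.35) and Tgif1 (-3.70 to -0.69).

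The promoter windows of 3 of these restraining genes are shown because Ski and Smurf2 lay higher in both LT-HSC libraries and because inhibitory Smads are themselves known Smad targets. Of the inhibitory Smads, Smad7 had no window among those searched. Smad6 is shown, although its values overlapped between the groups. Each window runs from 250 bases before to 50 bases after the RefSeq start (build GRCm38.p6, minus strand), and capitals mark matches to the Smad motifs searched on both strands, which were CAGAC (reverse complement GTCTG), the palindrome GTCTAGAC and the palindrome GGCGCC. The 3 motifs share no full match with each other. The windows are chr4:155222486-155222785 for Ski, chr9:64022010-64022309 for Smad6 and chr11:106920666-106920965 for Smurf2.
Ski: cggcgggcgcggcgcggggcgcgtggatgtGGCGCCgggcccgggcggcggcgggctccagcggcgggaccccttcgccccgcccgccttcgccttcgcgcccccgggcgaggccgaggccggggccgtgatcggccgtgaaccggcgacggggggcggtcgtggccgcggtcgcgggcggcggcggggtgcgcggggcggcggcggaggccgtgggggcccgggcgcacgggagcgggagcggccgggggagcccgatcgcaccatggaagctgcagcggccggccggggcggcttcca
Smad6: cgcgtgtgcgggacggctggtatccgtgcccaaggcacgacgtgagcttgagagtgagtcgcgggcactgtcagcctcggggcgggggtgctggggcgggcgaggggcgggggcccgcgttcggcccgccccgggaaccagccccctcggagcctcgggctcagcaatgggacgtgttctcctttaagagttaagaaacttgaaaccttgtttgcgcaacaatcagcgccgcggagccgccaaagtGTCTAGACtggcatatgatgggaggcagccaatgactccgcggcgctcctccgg
Smurf2: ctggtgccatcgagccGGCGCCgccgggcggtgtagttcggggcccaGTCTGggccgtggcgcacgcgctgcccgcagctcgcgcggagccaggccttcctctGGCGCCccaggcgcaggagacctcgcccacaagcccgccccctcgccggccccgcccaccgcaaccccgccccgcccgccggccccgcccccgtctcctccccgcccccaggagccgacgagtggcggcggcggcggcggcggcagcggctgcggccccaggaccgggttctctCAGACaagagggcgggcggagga

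Ski holds 1 GGCGCC and no other match, Smad6 holds 1 GTCTAGAC, and Smurf2 holds 2 GGCGCC and 2 CAGAC matches. Among the other restraining genes with windows, Smurf1 and some windows of Tgif1 held CAGAC only, and Tgif2 held no match. Of the 36 genes, 25 matched the promoter table by symbol, with 34 windows in all. GTCTAGAC was in 1 of the 34 windows (2.94%), that of Smad6, against 70 of all 32851 windows (0.213%). GGCGCC was in 9 windows (26.5%), against 11.9% of all windows, and CAGAC in 14 (41.2%), against 49.6%. The windows of the pathway genes were richer in G and C, with a median of 66.7% against 52.7% over all windows, and the part of base composition in these shares was not tested. A match describes letters in the window and is not a measured binding site.

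Levels of different genes were compared per kilobase of exon, with lengths from GENCODE M21 for all 36 genes. By the mean of the 4 libraries, Bmp6 came first at 47.3 CPM per kb in LT-HSC, against 49.0 CPM per kb in ST-HSC. Tgif1 followed at 23.2 CPM per kb in LT-HSC and 71.0 CPM per kb in ST-HSC, then Smad5 at 35.5 and 32.8 CPM per kb and Tgif2 at 27.2 and 23.9 CPM per kb in LT-HSC and ST-HSC. The ranges of these 4 genes over libraries overlapped, so their order does not hold beyond the spread. Smad5 stood above Smad1 in every library, at 31.0 to 40.0 CPM per kb against 2.84 to 7.82 CPM per kb. By the same mean Tgfbr3 was the highest receptor, at 11.4 CPM per kb in LT-HSC and 10.8 CPM per kb in ST-HSC. Its range over libraries overlapped those of Acvr1, Acvr2a, Tgfbr1 and Tgfbr2, so its rank above these does not hold beyond the spread.

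**Figure D3:**
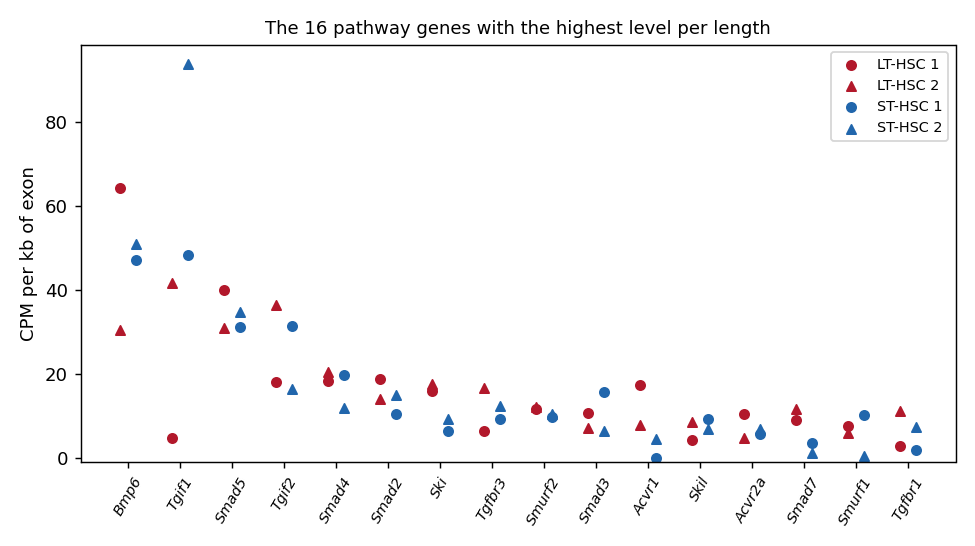
Level per kilobase of exon (CPM per kb, linear axis) of the 16 pathway genes with the highest mean, with red symbols for LT-HSC and blue symbols for ST-HSC libraries and circles and triangles for libraries 1 and 2. Bmp6, Tgif1, Smad5 and Tgif2 hold the highest values, and Tgif1 spans from 4.77 CPM per kb in LT-HSC 1 to 93.8 CPM per kb in ST-HSC 2.

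The spread between libraries of 1 group was larger than the difference between groups for most of these genes. In 23 of the 27 tested genes (85.2%) the fold change was smaller than the gap between the 2 libraries of at least 1 group, against 78.2% of all tested genes. The other 4 were Smad1, Smad7, Smurf2 and Ski, which were picked out after their values were seen. The median gap on the log2 scale was 1.12 for LT-HSC (0.69 over all tested genes) and 0.95 for ST-HSC (0.56 over all tested genes). Of the 36 genes, 15 had at least 10 CPM in every library. Another 7 reached 10 CPM in at least 1 library and were under 1 CPM in another (Tgfb1, Inhba, Acvr1, Acvr2b, Acvrl1, Bmpr1a and Smad6). A value under 1 CPM in at least 1 library was found for 9 of the 27 tested genes (33.3%), against 20.2% of all tested genes. Library 2 exceeded library 1 in both groups for 9 of the 27 genes, library 1 exceeded library 2 in both for 5, and 13 did neither. Over all tested genes, 52.3% had the same order of libraries in both groups, so a shared order is no trait of these genes.

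Of 106 other pathway genes in 6 lists, 105 were listed and 57 tested, and 0 passed the adjusted p. At an unadjusted p under 0.05, 3 were higher in LT-HSC (5.26%) and 1 lower (1.75%), beside 2.87% and 3.6% of all tested genes. The median log2 fold change was 0.07. The 3 higher ones were Wwp2, Rgmb and Col1a2. Wwp2, a ubiquitin ligase gene whose product acts on Smads, had 256 and 227 CPM in LT-HSC, against 143 and 113 CPM in ST-HSC, and its log2 fold change was 0.92 ± 0.26 (SE, limma adjusted p = 0.716). Rgmb, a BMP coreceptor gene, had 93 and 291 reads in LT-HSC, against 1 and 0 reads in ST-HSC. Col1a2, a collagen gene and target of TGF-beta in fibroblasts, had 508 and 111 reads in LT-HSC, against 0 and 1 reads in ST-HSC, while Col1a1, its partner chain, had 0 and 0 reads in LT-HSC and 0 and 2 in ST-HSC. The stromal marker sums given above were also higher in LT-HSC, while the median log2 fold change of the 3 tested stromal markers was -1.46, and their part in Col1a2 was not tested.

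The 1 lower gene was Strap, whose product helps Smad7 hold the type I receptor. It had 97.8 and 64.7 CPM in LT-HSC, against 161 and 189 CPM in ST-HSC, and its log2 fold change was -1.12 ± 0.34 (SE, limma adjusted p = 0.716). Trim33, a gene of another Smad regulator, had 61.5 and 73.5 CPM in LT-HSC, against 98.2 and 148 CPM in ST-HSC. Both LT-HSC libraries thus lay below both ST-HSC libraries for Strap and Trim33. Over the 23 tested intracellular regulators 1 was higher and 1 lower at the unadjusted p (4.35% each), beside 2.87% and 3.6% of all tested genes. Their median log2 fold change was 0.08.

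Outside the cell, none of the 23 tested other ligands, coreceptors, latency genes and antagonists except Rgmb passed the unadjusted p. Lrrc33, which encodes a protein that holds latent TGF-beta on myeloid cells, had 367 and 206 CPM in LT-HSC, against 441 and 482 CPM in ST-HSC. Eng, the endoglin coreceptor gene and an HSC surface marker, had 411 and 350 CPM in LT-HSC, against 381 and 209 CPM in ST-HSC, with overlapping values. The follistatin-like gene Fstl3, an activin antagonist, had 0.535 and 0.928 CPM in LT-HSC, against 54.8 and 6.13 CPM in ST-HSC, which did not overlap. Fstl1, its distant relative, lay on the other side, with 134 and 174 CPM in LT-HSC, against 80.2 and 110 CPM in ST-HSC. Dand5, a nodal and BMP antagonist gene, had 27.8 and 15.6 CPM in LT-HSC, against 42.9 and 44.6 CPM in ST-HSC. Gdf3, a ligand gene of the family, had 20.6 and 20.4 CPM in LT-HSC, against 29.4 and 30.5 CPM in ST-HSC. Both Dand5 and Gdf3 lay lower in both LT-HSC libraries, without passing. Bmp8b, a further ligand gene, had 118 and 103 CPM in LT-HSC, against 111 and 92.7 CPM in ST-HSC, with overlapping values. Lefty1 (2 and 0 reads in LT-HSC, 83 and 28 reads in ST-HSC) is uncertain, since its sequence is close to that of Lefty2. The remaining genes that the naming rule gave were low or unread in single libraries. Mmp14 had no read in LT-HSC and 22 and 43 reads in ST-HSC, Ltbp4 had 306 and 1 reads in LT-HSC and 323 and 398 reads in ST-HSC, Inha had 85 and 3 reads in LT-HSC and 0 and 25 reads in ST-HSC, and Cfc1 had 323 and 0 reads in LT-HSC and 0 and 136 reads in ST-HSC.

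Of 18 target genes, 11 were tested, with a median log2 fold change of 0.34. At the unadjusted p 1 was higher (Col1a2, 9.09%) and 0 lower, beside 2.87% and 3.6% of all tested genes. Junb, an AP-1 gene induced by TGF-beta, had 68.0 and 72.8 CPM in LT-HSC, against 35.1 and 29.5 CPM in ST-HSC, and its log2 fold change was 1.10 ± 0.46 (SE, limma adjusted p = 0.767). Cdkn1c, the gene of the CDK inhibitor p57, had 46.9 and 34.7 CPM in LT-HSC, against 13.4 and 12.0 CPM in ST-HSC, and its log2 fold change was 1.6 ± 0.69 (SE, adjusted p = 0.769). Neither gene overlapped between groups. The Id genes, which BMP signalling induces in many cells, showed no common direction. Id1 had 6.50 and 0.0619 CPM in LT-HSC, against 9.77 and 13.3 CPM in ST-HSC, and Id3 had 26.6 and 1.86 CPM in LT-HSC, against 26.2 and 0.809 CPM in ST-HSC. Ctgf and Cdkn2b, classical targets of TGF-beta in other cells, had no read in any library.

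**Figure D4:**
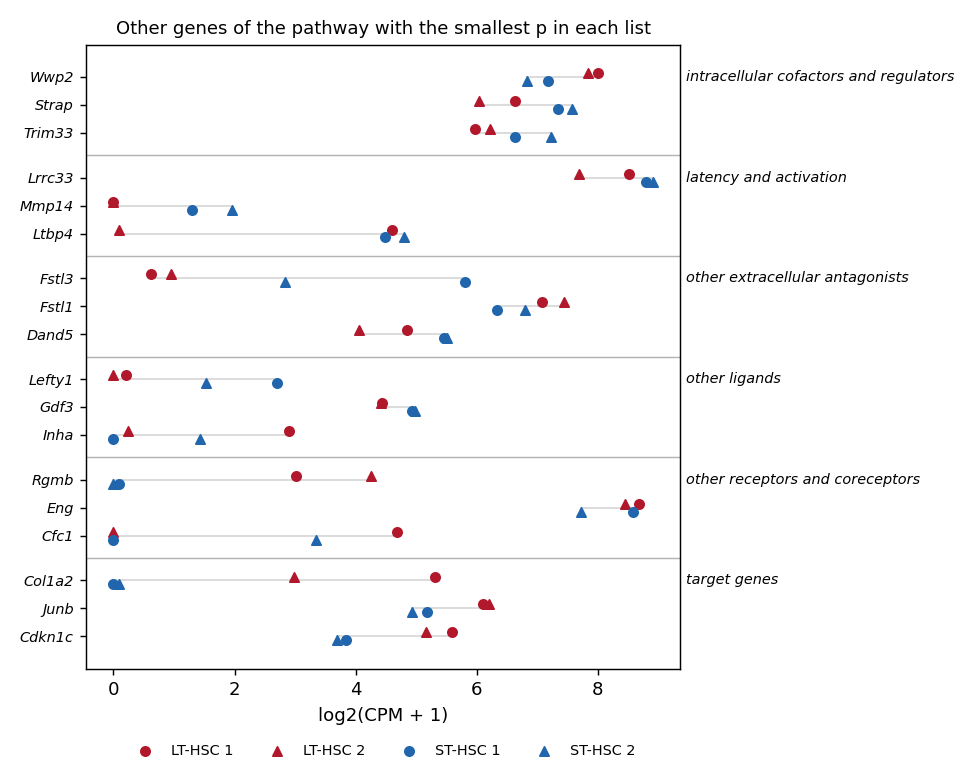
Level of other pathway genes in each library as log2(CPM + 1), showing the 3 genes with the smallest p in each of 6 lists, with red symbols for LT-HSC and blue for ST-HSC libraries and circles and triangles for libraries 1 and 2. Red lies right of blue for Wwp2, Fstl1, Rgmb, Col1a2, Junb and Cdkn1c, left of blue for Strap, Trim33, Lrrc33, Mmp14, Fstl3, Dand5, Lefty1 and Gdf3, and overlaps it for Ltbp4, Inha, Eng and Cfc1.

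The libraries held 13064063 to 16144213 reads in listed genes. Stem cell markers were read in all libraries. Of 11 tested, 7 had the higher values in LT-HSC without overlap, 2 the lower (Cd34 and Cd48), and Kit and Ly6a overlapped. Procr, 1 of the higher ones, had 347 and 236 CPM in LT-HSC, against 136 and 122 CPM in ST-HSC. Cd9, on which both groups were gated, had 134 and 124 CPM in LT-HSC, against 100 and 113 CPM in ST-HSC. Its log2 fold change was 0.28 ± 0.29 (SE). Cd34 had 134 and 201 CPM in LT-HSC, although that gate excludes the protein, against 324 and 430 CPM in ST-HSC. Cd48 had 2 and 2 reads in LT-HSC, against 247 and 575 reads in ST-HSC, although both gates exclude the protein. Cell cycle markers summed to 952 and 924 CPM in LT-HSC, against 1732 and 2167 CPM in ST-HSC. Both LT-HSC libraries lay below both ST-HSC libraries for 7 of these 10 genes (70%), against 17.5% of all tested genes. The part of cell cycle markers in the values of Ski, Smad7, Strap or Junb was not tested. Erythroid markers summed to 289 and 206 CPM in LT-HSC, against 319 and 277 CPM in ST-HSC. Granulocyte and monocyte markers summed to 524 and 403 CPM in LT-HSC, against 500 and 451 CPM in ST-HSC. Lymphocyte markers summed to 232 and 228 CPM in LT-HSC, against 211 and 210.4 CPM in ST-HSC. Ctsg, Pax5 and Cd3e, which define granulocytes, B cells and T cells, had no read in any library.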

How the data were processed

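RNA from 2000 sorted cells per library was amplified as cDNA with the SMARTer kit and sequenced by Illumina protocols, per the labels' protocols. TopHat and the mm9 build are named in the submitters' processing notes; no source used here names the counter, annotation or filters. The deposited files hold 1 log2 value per gene, made by the authors. Its low values step like log2 of whole reads plus 1, scaled to the library total (counts per 1e6 reads, CPM), and all 12812 to 13135 values of up to 100 reads per library lay within 0.1 of a whole number. If unread genes were instead raised to 1 read, each read gene would hold 1 read more. Reads and CPM were computed from these steps with the library totals. The floor of 3 reads covers counting error only. Each ± is an SE from limma or an SD over the 2 libraries of a group, and so reflects spread between libraries.

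The test was that of limma 3.58.1 (R 4.3.3, statmod 1.5.0, trended and robust), run for genes that reached 1 CPM in 2 or more libraries, on log2(CPM + 1), LT-HSC against ST-HSC, with Benjamini-Hochberg adjustment over all 12569 genes. The scripts were tested on simulated reads. No library was a copy of another, with a chi-square per degree of freedom of 183.4 within LT-HSC and 143.6 within ST-HSC. The members and lists were chosen with earlier results of these data known. All members are accounted for, and of each other pathway list the up to 3 genes with the smallest p are named. Other pathway genes added after their values were seen were Col1a1, Id1, Id3, Ctgf, Cdkn2b, Tgfbi, Klf10 and Bmp8b. Markers added in the same way were Procr, Cd48, Cd34, Cd9, Kit, Ly6a, Itga2b, Pf4, Gp9, Ppbp, Kdr, Pdgfrb, Cdh5, Col3a1, Cxcl12, Postn and Bglap. Alternatives were other scaling, filters, pseudocount and test, the deposited values as they are, the replicate number as a block, and each library left out.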

Additional observations from a re-analysis of the deposited data

How the results depend on the processing

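No gene passed the adjusted p under any of the 11 alternatives (0 in each). The number of pathway members at an unadjusted p under 0.05, 2 with all libraries, was 1 with limma-voom on the recovered reads (Ski), 1 with the replicate block (Tgif1) and 1 to 2 with single libraries left out. The cause was not tested. Same-numbered libraries did not deviate together (correlation across genes 0.0518), and the block left the median of the members at 0.10. That median was -0.032 to 0.16 with single libraries left out and 0.084 to 0.17 under the other alternatives. The count of other pathway genes, 4, was 2 with a mean of at least 10 CPM, where 42 rather than 57 were tested, and 1 to 5 with single libraries left out. Of the 27 tested members, 8 kept their sign with each library left out and 19 did not. The log2 fold changes of those 19 ranged as follows: Bmp4 -0.68 to 2.56, Bmp6 -0.69 to 0.39, Inhba -0.59 to 6.02, Tgfbr1 -0.37 to 1.63, Tgfbr2 -1.90 to 0.57, Tgfbr3 -0.75 to 0.62, Acvr1b -0.70 to 0.56, Acvr2a -0.40 to 0.73, Acvr2b -0.36 to 2.92, Acvrl1 -3.59 to 0.62, Bmpr1a -1.70 to 1.87, Bmpr2 -2.21 to 1.30, Smad3 -0.83 to 0.45, Smad4 -0.032 to 0.68, Smad5 -0.082 to 0.28, Smad6 -3.25 to 0.10, Smurf1 -0.62 to 3.57, Skil -0.90 to 0.11, Tgif2 -0.33 to 0.68. With limma-voom, Tgfbr3 stood at 0.0090 and Acvr1b at 0.075, on the other side of 0 from the values reported. With 1 library left out, the lone library is assumed to vary like those of the other group. Differences of genes under 3 reads in every library were not detectable, and the part of depth in low counts was not tested. Acvr1 had 0 reads in ST-HSC 1 and 243 reads in ST-HSC 2, whose library totals were 15044526 and 14837242 reads.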
